A study of Mus musculus with 12 samples.

Results

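A set of 9 genes whose transcripts are known mainly from early embryos and pluripotent stem cells was followed through the reprogramming of mouse fibroblasts. The set holds the Dppa genes Dppa2, Dppa3, Dppa4 and Dppa5a, and Utf1, Eras, Tdh, Fbxo15 and L1td1. The genes were chosen by name, and all 9 were found among the 24098 genes of the deposited table of FPKM (fragments scaled to transcript length and to the number of mapped fragments). All 9 also passed the filter of at least 1 FPKM in at least 1 library, which kept 14178 genes.

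The study sequenced polyA RNA of 12 conditions with 1 library each. Mouse embryonic fibroblasts (MEFs) were the start (D0). They carried an EGFP reporter behind the stop codon of Oct4 and were infected with pMXs retroviruses for Sox2, Klf4, Oct4 and c-Myc. They were cultured with neither feeder cells nor passage. For reprogramming the study's methods name mESC, KOSR or FF medium, of which FF holds serum replacement, LIF, ascorbic acid, bFGF and CHIR99021. Cells of day 3 (D3) were unsorted, sorting by Thy-1, a surface protein of fibroblasts, gave D6T-, D6T+, D9T- and D9T+ on days 6 and 9, and sorting by SSEA-1, a carbohydrate antigen of the pluripotent cell surface, gave D12S+, D12S-, D16S+ and D16S- on days 12 and 16. The study treats Thy-1- and then SSEA-1+ cells as the successful route and the opposite fractions as the unsuccessful route. Its end points were established iPSCs and the mouse ES cell line ES-D3 (mESCs, library ESD3). These lines grew in FF medium according to the sample labels, while the study's methods name other media for them. The infected cultures were a mixed population, and each end point was a single library.

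Pluripotency rests on a network of transcription factors around Oct4, Sox2 and Nanog, and the genes described here are known as its markers and effectors rather than as its core. Dppa2 and Dppa4 encode SAP-domain proteins that form a heterodimer on chromatin and are known to prime genes of the early embryo. Dppa3 (Stella, PGC7) is a maternal protein that protects methylated DNA in the zygote, Dppa5a (Esg1) a small KH-domain protein that binds RNA, and Utf1 a chromatin protein of pluripotent cells. Eras is a Ras protein that is active without a stimulus, Tdh is threonine dehydrogenase, the mitochondrial enzyme that splits threonine towards glycine and acetyl-CoA, Fbxo15 is an F-box protein, a substrate adaptor of SCF ubiquitin ligases, and L1td1 is an RNA-binding protein derived from the LINE-1 retrotransposon. Fbxo15 was the marker with which iPSCs were first selected, and Tdh is known for the dependence of mouse ES cells on threonine.

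Across the libraries, the 9 genes went from at most 1.34 FPKM in the fibroblasts to between 17.9 and 2441 FPKM in iPSCs, and did so in sequence. Counted by the first library with 10% of the iPSC level, L1td1 and Tdh came first (D6T-), Eras and Fbxo15 next (D9T-), and Utf1 and the 4 Dppa genes last (D12S+). Against the mESC level instead, L1td1 passed 10% in D3 (15.2%) and Dppa3 in D9T- (18.4%), while the others did so in the same libraries. On each sorted day all 9 were higher in the cells of the successful route. Taken on FPKM + 1, the difference was below 2-fold for 7 of them on day 6 and at least 2-fold for all of them on day 16. Values below are FPKM as deposited, and differences are on the log2(FPKM + 1) scale, on which changes of low genes come out too small. With 1 library per condition no difference has a replicate check, and no test was made. A gene is called different when it passes 4-fold (iPSCs against D0) or 2-fold (all other pairs) on that scale, and the share of all kept genes that pass is given beside each first count. In bulk RNA, fewer cells that express a gene and less RNA per cell cannot be told apart.

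The genes were located (mm9, GENCODE M1, 1-based, all annotated as protein-coding). L1td1 lies on chromosome 4 (98393425 to 98405171, plus strand), Tdh on chromosome 14 (64111184 to 64127929, minus), Eras on chromosome X (7501402 to 7505733, minus) and Utf1 on chromosome 7 (147129688 to 147131011, plus). Dppa3 lies on chromosome 6 (122576428 to 122580290, plus), Dppa5a on chromosome 9 (78214859 to 78215984, minus), and Dppa4 (48283848 to 48294405) and Dppa2 (48310590 to 48319836) lie side by side on the plus strand of chromosome 16, with 15981 bases between their loci. Genes on the opposite strand overlap 3 of the loci. Eras and Pcsk1n share 135 bases and are listed with 1 common locus, Fbxo15 contains 1700034H14Rik, and Tdh contains Gm17232. The sample labels name a stranded kit and the study's methods a kit without that word, and whether the counting used the strand was not given in the sources used here.

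The RefSeq promoter table (GRCm38.p6) held entries for Utf1, Eras and L1td1, a late, a middle and an early gene of the sequence. They are shown so that the 3 starts can be compared, each as the 250 bases before the start, 5′ to 3′ on the strand of the gene. Capitals mark matches, on either strand, to a GC box with the letters GGGCGG, to the CACCC box with CCACCC, and to the SOX motif with ACAATG. The windows are chr4:98726504-98726753 (plus), chrX:7928608-7928857 (minus) and chr7:139943606-139943855 (plus).
L1td1: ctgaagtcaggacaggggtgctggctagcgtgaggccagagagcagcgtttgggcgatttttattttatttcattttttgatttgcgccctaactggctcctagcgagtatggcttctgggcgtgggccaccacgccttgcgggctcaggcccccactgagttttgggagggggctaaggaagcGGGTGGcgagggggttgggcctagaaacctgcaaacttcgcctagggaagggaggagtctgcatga
Eras: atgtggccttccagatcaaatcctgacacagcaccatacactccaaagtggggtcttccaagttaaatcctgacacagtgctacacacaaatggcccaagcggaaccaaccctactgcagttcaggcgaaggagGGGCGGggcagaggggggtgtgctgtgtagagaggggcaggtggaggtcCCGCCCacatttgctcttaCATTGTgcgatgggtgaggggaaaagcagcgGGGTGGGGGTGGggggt
Utf1: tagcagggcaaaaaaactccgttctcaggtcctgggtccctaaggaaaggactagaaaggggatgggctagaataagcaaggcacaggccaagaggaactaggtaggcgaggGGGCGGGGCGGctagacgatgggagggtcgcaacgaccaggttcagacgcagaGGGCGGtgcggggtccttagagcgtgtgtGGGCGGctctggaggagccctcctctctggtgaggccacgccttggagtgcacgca

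The Utf1 window held 4 GC boxes, at -138, -133, -85 and -56 from the start, of which the first pair overlap by 1 base. That of Eras held 2 GC boxes (-116 and -67), 2 adjoining CACCC boxes (-17 and -11) and 1 SOX motif (-48). In L1td1 the only match was 1 CACCC box at -66. Among the 32851 promoters of the table, 32.7% held a GC box, 28.1% a CACCC box and 10.7% the SOX motif. The octamer ATTTGCAT (1.60% of promoters), CCAAT (33.8%), TATAAA (12.4%) and the E-box CACGTG (6.02%), each searched on both strands, had no match in these windows. The windows held 14 (Utf1), 6 (Eras) and 11 (L1td1) CpG dinucleotides, against a median of 6. The promoters of Dppa2, Dppa3, Dppa4, Dppa5a, Tdh and Fbxo15 are not shown.

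The earliest genes, L1td1 and Tdh, are described first. L1td1 was at 0.0984 FPKM in D0 and at 6.91 in D3, and then at 42.4 in D6T-, 70.9 in D9T-, 102.2 in D12S+, 120 in D16S+ and 121 in iPSCs. In the opposite fractions it was at 7.08 in D6T+, 32.1 in D9T+, 63.8 in D12S- and 36.9 in D16S-, and mESCs had 45.6. L1td1 was thus the gene with the highest level of the 9 in D3, passed 50% of its iPSC level in D9T-, and was lower in mESCs than in D9T-, D12S- and every later library of the successful route. D3 stood 2.85 above D0 (log2), D6T- a further 2.46 above D3, and every later step of the route was below 2-fold.

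Tdh was at 0.186 FPKM in D0, 2.06 in D3, 50.5 in D6T-, 85.2 in D9T-, 198 in D12S+, 157 in D16S+ and 419 in iPSCs. It was at 8.79 in D6T+, 42.9 in D9T+, 57.8 in D12S- and 26.1 in D16S-, and at 297 in mESCs. Its largest step on the route was from D3 to D6T- (4.07), and unlike the others it did not reach 50% of the iPSC level within the sorted cells (37.3% in D16S+). Against the mESC level instead, Tdh stood at 66.6% in D12S+ and 52.65% in D16S+. Of the 9 genes it was the 1 called higher in iPSCs than in D16S+ (1.42).

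Eras and Fbxo15 passed 1 FPKM in D6T- and 10% of their iPSC level in D9T-. Eras was listed at 0 in D0 and was at 0.0332 FPKM in D3, 1.27 in D6T-, 8.91 in D9T-, 26.1 in D12S+, 22.4 in D16S+ and 38.1 in iPSCs. The opposite fractions had 0.197 (D6T+), 3.69 (D9T+), 3.93 (D12S-) and 2.79 (D16S-), and mESCs had 51.2. Pcsk1n, listed with the same locus, was at 53.4 FPKM in D6T-, 30.9 in D9T- and 5.54 in iPSCs. Whether its reads entered the Eras values was not tested. Eras was the gene of the 9 whose level in mESCs exceeded that in iPSCs by the most, but by less than 2-fold (iPSCs minus mESCs -0.42).

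Fbxo15 (chromosome 18, 85104550 to 85150768, plus strand) was at 0.0640 FPKM in D0, 0.193 in D3, 1.39 in D6T-, 7.52 in D9T-, 7.39 in D12S+, 46.8 in D16S+ and 25.9 in iPSCs. It was at 0.254 in D6T+, 1.75 in D9T+, 2.59 in D12S- and 2.11 in D16S-, and at 18.9 in mESCs. It was the only one of the 9 that was not higher in D12S+ than in D9T- (-0.02), and D16S+ then stood above D12S+ by 2.51. Timm21, listed 0 bases from the Fbxo15 locus, was at 11.0 FPKM in D6T-, 9.40 in D9T-, 3.65 in D12S+ and 5.20 in D16S+. Whether its reads entered the Fbxo15 values was not tested.

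Utf1 was at 0.228 FPKM in D0, 0.274 in D3, 0.467 in D6T-, 9.22 in D9T-, 254 in D12S+, 372 in D16S+ and 439 in iPSCs. It was at 0.325 in D6T+, 3.48 in D9T+, 15.6 in D12S- and 19.9 in D16S-, and at 430 in mESCs. Most of the difference arose between D6T- and D12S+, by 2.80 to D9T- and by a further 4.64 to D12S+, and iPSCs and mESCs differed by 0.03 (log2).

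Dppa5a was the most abundant of the 9 in both end points. It was at 1.34 FPKM in D0, 1.01 in D3, 2.43 in D6T-, 84.3 in D9T-, 1365 in D12S+, 3582 in D16S+ and 2441 in iPSCs. The opposite fractions had 1.28 (D6T+), 11.2 (D9T+), 39.5 (D12S-) and 76.9 (D16S-), and mESCs had 2698. It was above 1 FPKM already in D0, where the interval given by cuffdiff runs from 0 to 4.58, and its steps of 4.64 to D9T- and 4.00 to D12S+ were the largest and second largest of the 9 on this scale. Its difference between iPSCs and D0 (10.03) was the largest of all 14178 kept genes on this scale.

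Dppa4 was listed at 0 in D0 and was at 0.111 FPKM in D3, 0.106 in D6T-, 1.37 in D9T-, 35.0 in D12S+, 86.6 in D16S+ and 101.2 in iPSCs. It was at 0.0891 in D6T+, 0.103 in D9T+, 0.804 in D12S- and 2.53 in D16S-, and at 60.3 in mESCs. Its neighbour and partner Dppa2 was lower throughout the second part of the route, at 0.102 in D0, 0.0857 in D3, 0.0328 in D6T-, 0.353 in D9T-, 5.20 in D12S+, 15.6 in D16S+ and 28.6 in iPSCs. Both genes were higher in each library of the route from D12S+ on than in the one before, but Dppa2 was the only one of the 9 not above 1 FPKM in D9T-. Dppa2 was at 0.0203 FPKM in D6T+, 0.185 in D9T+, 0.191 in D12S- and 0.359 in D16S-, so that it stayed below 1 FPKM in every library outside D12S+, D16S+ and the end points, and mESCs had 10.9.

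Dppa3 was listed at 0 in D0, D3 and D6T+, and was at 0.0443 FPKM in D6T-, 1.02 in D9T-, 14.0 in D12S+, 85.0 in D16S+ and 17.9 in iPSCs. It was at 0.142 in D9T+, 0.515 in D12S- and 0.970 in D16S-, and at 5.53 in mESCs. Dppa3 was the only one of the 9 called lower in iPSCs than in D16S+ (-2.18), and its level in D16S+ was 474% of that in iPSCs.

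**Figure D1:**
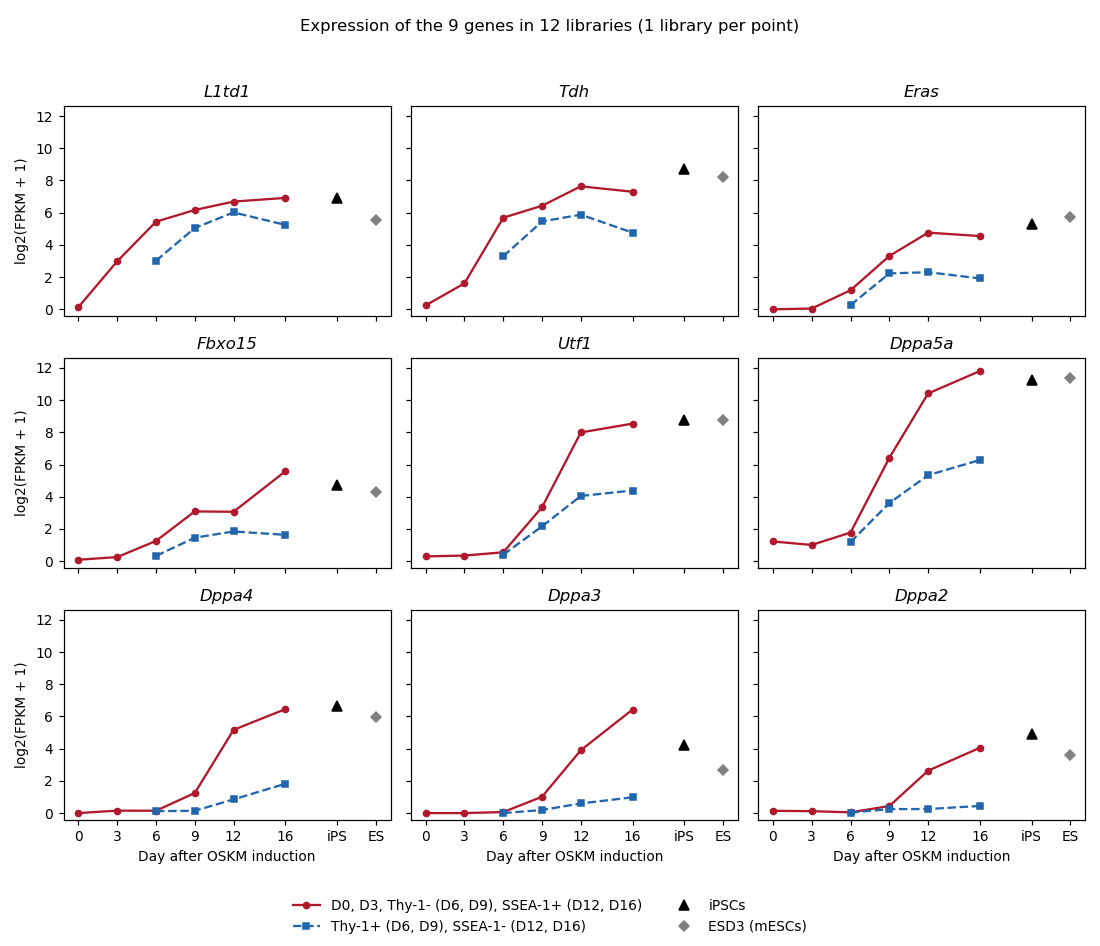
Level of each of the 9 genes in the 12 libraries as log2(FPKM + 1), 1 library per condition, with the successful route, the opposite fractions and the end points marked. L1td1 and Tdh leave the baseline at D3, Tdh with its largest step at D6T-, and Dppa2 stays near it until D12S+.

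In iPSCs all 9 genes were called higher than in D0 (at least 4-fold, which 6.19% of all kept genes passed upward and 9.20% downward). The differences ran from 4.24 (Dppa3) to 10.03 (Dppa5a), with a median of 6.68, beside a median of 0.03 over all kept genes. Dppa3, Dppa4 and Eras were listed at 0 in D0, so no fold is given for them, and the median of the other 6 was 7.63. The interval that cuffdiff attached to each value was wide. For Dppa2 it ran from 0 to 57.2 FPKM in iPSCs, and only for Dppa4, Utf1 and L1td1 did the iPSC interval lie wholly above that of D0. For Dppa4 it ran from 7.45 to 195 FPKM in iPSCs, for Utf1 from 21.7 to 856, and for L1td1 from 8.03 to 234. In D0 the interval of Dppa4 was listed as 0 to 0, so any lower end above 0 lay above it. A listed 0 can also be a failed estimate. When the 12 libraries were ordered by level for each gene, every pair of neighbours in that order had overlapping intervals, for all 9 genes, so the order within a gene is not resolved step by step. How often intervals overlap over all kept genes is not given, here or below, so overlap is not read as a trait of these genes.

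Along the successful route, the calls moved from a few genes to most of them and back to few. D3 against D0 called 2 genes higher, L1td1 (2.85) and Tdh (1.37), where 5.76% of kept genes passed. D6T- against D3 called 4 (3.96% of kept genes), namely Tdh, L1td1, Eras (1.14) and Fbxo15, the last just past 2-fold. D9T- against D6T- called 5 (5.06%), which were Dppa5a, Utf1, Eras, Fbxo15 and Dppa4, and D12S+ against D9T- called 7 (7.05%), all but Fbxo15 and L1td1. Sorting began with D6T- and changed from Thy-1 to SSEA-1 with D12S+, so day and sorting cannot be told apart there. D16S+ against D12S+ called 5 (3.59%), the 4 Dppa genes and Fbxo15. From D16S+ to iPSCs, Tdh was called higher (4.38% of kept genes) and Dppa3 lower (7.77%). The median over the 9 genes was 0.05 at the first of these steps, 0.77, 1.10, 2.20 and 1.28 at the next ones, and 0.22 at the last.

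The time at which each gene first exceeded 1 FPKM, in a library and in all later ones of the route, spread over 5 libraries. Dppa5a did so in D0, where 66.0% of kept genes did. L1td1 and Tdh did so in D3 (1.85%), Eras and Fbxo15 in D6T- (1.26%), Dppa3, Dppa4 and Utf1 in D9T- (1.49%) and Dppa2 in D12S+ (2.01%). Relative to its own iPSC level, the median gene of the 9 stood at 0.247% in D6T-, 5.68% in D9T-, 55.9% in D12S+ and 85.6% in D16S+. Tdh and L1td1 had reached 10% of it in D6T-, Eras and Fbxo15 in D9T- and the other 5 in D12S+. The level of 50% was first reached in D9T- by L1td1, in D12S+ by Dppa3, Dppa5a, Utf1 and Eras, in D16S+ by Dppa2, Dppa4 and Fbxo15, and in iPSCs by Tdh. An early start did not always go with an early approach to the iPSC level, as the values of Tdh show. That rests on the single iPSC library, since Tdh stood at 66.6% of its mESC level in D12S+. In D16S+, Dppa3 (474%), Fbxo15 (180%) and Dppa5a (147%) exceeded the iPSC level, while Dppa2 (54.6%), Eras (58.7%) and Tdh (37.3%) were furthest below it. As a percent of the mESC level, these last genes stood at 142.6% (Dppa2), 43.7% (Eras) and 52.65% (Tdh) in D16S+.

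**Figure D2:**
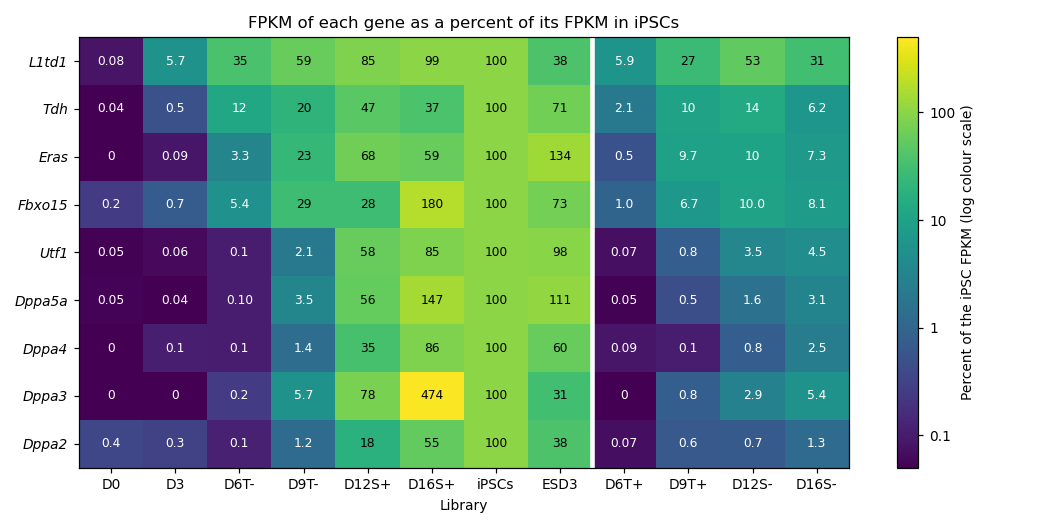
FPKM of each gene as a percent of its level in iPSCs, for every library, with the genes in rows and the libraries in columns. The step to 10% or more falls in D6T- for Tdh and L1td1, in D9T- for Eras and Fbxo15 and in D12S+ for the other 5 genes.

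To ask whether the genes belong to the cells that lose Thy-1 or gain SSEA-1, both fractions of a day were set against each other. On day 6, L1td1 (2.43) and Tdh (2.40) were called higher in Thy-1- cells, where 2.93% of kept genes passed, and Fbxo15 (0.93) and Eras (0.92) came close. Without the pseudocount, the ratio of FPKM was 6.45 for Eras, 5.49 for Fbxo15, 5.75 for Tdh and 5.99 for L1td1. On day 9, 6 genes were called (1.81%), led by Dppa5a (2.81), with L1td1 (1.12) still among them, while Tdh (0.98), Dppa3 (0.82) and Dppa2 (0.19) were not. On day 12, 8 genes were called higher in SSEA-1+ cells (4.79%), from Fbxo15 (1.22) to Dppa5a (5.08), and only L1td1 (0.67) was not. On day 16 all 9 were called (11.8%), from L1td1 (1.68) to Dppa5a (5.52), with Dppa3 at 5.45, Dppa4 at 4.63 and Utf1 at 4.15. By any size, all 9 genes were higher in the successful fraction on all 4 days, as were 23.2% of kept genes. The intervals of the 2 fractions overlapped for each gene on each day.

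The day of the largest difference was not the same for all genes. Days 6 and 9 were sorted on Thy-1 and days 12 and 16 on SSEA-1, so day and marker cannot be told apart between them. L1td1, an early gene, had its largest difference on day 6, and the 8 other genes had theirs on day 16. For Dppa4 that order held only with the pseudocount of 1 FPKM, since with 0.1 FPKM day 12 (5.28) stood above day 16 (5.04), and SSEA-1- cells held 2.30% of the SSEA-1+ level on day 12 and 2.92% on day 16. In D16S- the median gene stood at 4.52% of its level in D16S+, but L1td1 stood at 30.7%, Tdh at 16.7% and Eras at 12.5%, against 1.14% for Dppa3 and 2.30% for Dppa2. On day 12 L1td1 in the SSEA-1- cells stood at 62.4% of the SSEA-1+ level, Fbxo15 at 35.1% and Tdh at 29.2%, with a median of 6.13% over the 9. On day 9 the Thy-1+ cells had a median of 37.7% of the Thy-1- level.

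**Figure D3:**
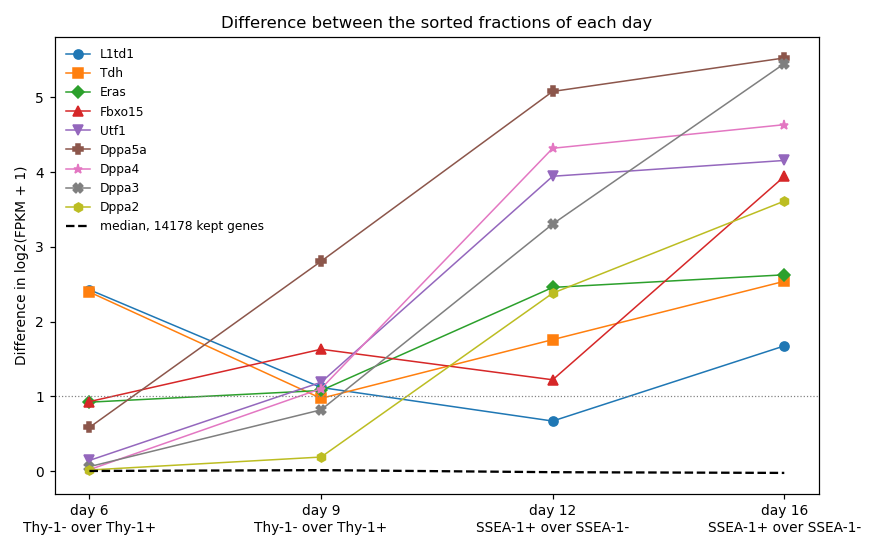
Difference of each gene between the fractions of days 6, 9, 12 and 16 (Thy-1- minus Thy-1+, then SSEA-1+ minus SSEA-1-) as log2(FPKM + 1), 1 library per fraction. All values lie above 0, and the difference of L1td1 is largest on day 6 while that of the other 8 genes is largest on day 16, for Dppa4 only with this pseudocount.

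The unsuccessful route was not empty of these transcripts. D16S- against D0 called 7 of the 9 genes higher (12.8% of kept genes), from Fbxo15 (1.55) to L1td1 (5.11), with Dppa5a at 5.06, Tdh at 4.52 and Utf1 at 4.09. The median was 1.92, and 4.30 over the 6 genes not listed at 0 in D0. L1td1 was the only one whose interval in D16S- (2.43 to 71.3 FPKM) lay above that of D0. Dppa3 (0.970 FPKM) and Dppa2 (0.359 FPKM) were not called, and they were also the 2 genes that passed 2-fold over D0 when D12S+ and D16S+ were averaged but not when D12S- and D16S- were, a pattern of 8.53% of kept genes, while the other 7 passed in both (8.64%). Both exceptions rest on the pseudocount of 1 FPKM in the comparison of D16S- with D0, where a pseudocount of 0.1 FPKM called all 9 genes (Dppa3 at 3.42 and Dppa2 at 1.18), and it put 8 genes among those that passed in both means. From D12S- to D16S- no gene was called higher (2.03% of kept genes) and Tdh was called lower (-1.12, 0.536%).

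Markers of other cells moved with the same fractions. The summed level of the 10 fibroblast markers was 641 FPKM in D6T- against 2992 in D6T+, 773 against 2566 on day 9, 606 against 1060 on day 12 and 232 against 719 on day 16. Of the 10, 6 were called lower in D16S+ (15.2% of kept genes passed downward), none was listed at 0 in either fraction, and the sum was 8439 in D0 and 335 in iPSCs. Thy1 itself, on which days 6 and 9 were sorted, was at 3.24 FPKM in D6T- and 477 in D6T+. The 8 leukocyte markers summed to 88.5 FPKM in D16S+ and 194 in D16S-, mainly through Cd68 (62.0 and 115) and Laptm5 (19.0 and 57.3), with Ptprc listed at 0 and at 0.03 FPKM. The 6 keratinocyte markers summed to 9.17 and 46.1 FPKM (Krt14 8.24 and 39.9), and the 7 trophoblast markers to 483 and 1233 FPKM (Krt8 and Krt18 made up most, with Cdx2 at 0.35 and 0.39). That list went both ways, as 2 of the 7 were called higher in D16S+ (Tfap2c at 65.7 against 19.2 FPKM and Eomes at 4.41 against 1.23) and 2 lower, with a median of -0.21. The depth of D16S+ relative to D0 was 1.51 and that of D16S- 0.999. The part of these shifts in the differences of the 9 genes was not tested.

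iPSCs and mESCs, both pluripotent, differed in some of the genes. L1td1 (1.39), Dppa3 (1.54) and Dppa2 (1.31) were called higher in iPSCs, where 6.79% of kept genes passed, and none was called lower (7.41%). The median was 0.49, and Utf1 (0.03), Dppa5a (-0.14) and Eras (-0.42) were the genes with the smallest or a negative difference. As each line was a single library, a difference between lines and one between libraries cannot be told apart.

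Within a library, levels per length can be compared between genes. Dppa5a, Utf1 and Tdh were the top 3 of the 9, in that order, in D12S+, D16S+, iPSCs and mESCs, while Tdh, Dppa5a and L1td1 led in D9T- and Tdh, L1td1 and Dppa5a in D6T-. Dppa5a exceeded 99.8% of the kept genes in iPSCs, Utf1 98.9% and Tdh 98.8%, whereas Dppa2 exceeded 77.5%. Reads with more than 1 locus had been removed, so the level of a gene with near-identical copies elsewhere, as Dppa3 and Dppa5a are known to have, is uncertain.

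The profiles over the 12 libraries resembled one another to different degrees. Each correlation here is a description over 12 libraries that share the time course, with no p. Dppa5a and Utf1 were the most alike pair (Pearson r of 0.993) and Dppa2 and L1td1 the least (0.573), while Dppa2 and Dppa4 had 0.980 and the early pair Tdh and L1td1 0.931. Against the mean of the other 8, r ran from 0.765 (L1td1) to 0.979 (Dppa5a). Outside the set, the 5 genes most like the mean of the 9, out of 8795 that reached 10 FPKM, were Phc1, a Polycomb subunit, Zscan10, a zinc-finger factor of pluripotent cells, and Adnp2 (0.989 each), Trim71, an RNA-binding ubiquitin ligase (0.987), and Fgf4, a growth factor (0.985). The single most similar gene was Tdrd12 for Dppa2 (0.997), Lin28a for Dppa4 (0.995), Foxh1 for Dppa5a (0.995), Trap1a for Utf1 (0.999), Cyct for Dppa3 (0.987), Sept1 for Eras (0.989), Zfp110 for Fbxo15 (0.982), Epb4.1l4a for L1td1 (0.980) and Acvr2b for Tdh (0.965). Tdrd12, a Tudor-domain protein of the piRNA pathway, ran beside Dppa2, at 0.11 FPKM in D9T-, 3.49 in D12S+, 11.5 in D16S+ and 20.9 in iPSCs.

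Related genes were read from lists. Of 12 further regulators of naive pluripotency, 11 were called higher in iPSCs than in D0 (median 4.93) and 12 in D16S+ than in D16S- (2.89), among them Nanog, at 192 and 8.99 FPKM in the day-16 fractions. All 6 of the other genes catalogued, like several of the 9, as ES cell associated transcripts were called in both comparisons (5.38 and 3.74). The lists overlap, as these 6 include Nanog and also Khdc3 of the next list. The KH-domain relatives of Dppa5a gave 2 genes of 5 above the filter, Ooep (0.04 FPKM in D0, 85.0 in iPSCs) and Khdc3 (0.03 and 25.8), and both were called in both comparisons. Of 9 kept enzymes around Tdh, 4 were called higher in iPSCs (Gldc, Shmt1, Mthfd1 and Amt, median of the list 1.04) and 7 in D16S+ (1.41). Gldc and Amt, subunits of the glycine cleavage system, went from 1.45 to 179 and from 0.59 to 80.5 FPKM between D0 and iPSCs, and Gcat, which takes the product of Tdh, from 15.5 to 33.0. Of the partners of F-box proteins and of the other Ras genes, none of the 6 kept SCF genes (median 0.65) and none of the 5 kept Ras genes (0.33) was called between D0 and iPSCs.

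Genes near the 9 loci were also read. Within 100 kb lay 47 further genes, of which 33 passed the filter. Of these, 6 were called higher in iPSCs than in D0 (18.2% of the 33, beside 6.19% of all kept genes). Another 2 were called lower (9.20% of all kept genes), and the median of the 33 was 0.42. The 6 were Nanog (7.04), Slc2a3 (7.07) and Gdf3 (6.05) near Dppa3, Ooep (6.36) near Dppa5a, Pim2 (2.33) near Eras, and Pcsk1n (2.13), which is listed with the locus of Eras. Nanog, Gdf3 and Ooep are also in the lists read above. Mfap5 (-4.52) near Dppa3 and Adam8 (-2.89) near Utf1 were lower. Nanog lay 77217 bases from Dppa3, Gdf3 16352 bases and Slc2a3 97537 bases, and Ooep 8703 bases from Dppa5a. At Dppa2 and Dppa4 the only other gene in the window, Gm5485, was listed at 0 throughout, and near Utf1, Tdh, Fbxo15 and L1td1 no neighbour was called higher. D16S+ against D16S- called 6 of the 33 higher (18.2% of the 33, beside 11.8% of all kept genes). It called 2 lower (15.2% of all kept genes), with a median of 0.16.

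**Figure D4:**
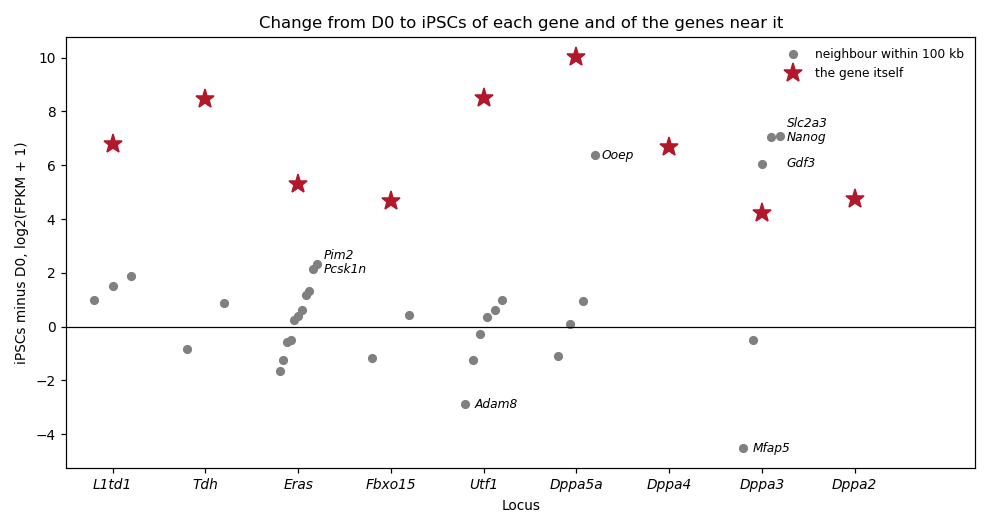
Difference between iPSCs and D0, as log2(FPKM + 1), of each of the 9 genes (stars) and of the kept genes within 100 kb of it (points), by locus. Neighbours past 4-fold are named, and apart from those near Dppa3, Dppa5a and Eras none reaches that size upward.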

How the data were processed

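The authors made TruSeq mRNA libraries (a stranded kit per the labels, while the methods of the study name a TruSeq kit without stating strand), mapped the reads to mm9 with STAR, removed reads with more than 2 mismatches or more than 1 locus, and ran cuffdiff. The deposited values are FPKM, made by the authors with cuffdiff, with the ends of its interval per value. That interval is modelled and, with 1 library per condition, does not measure the spread between biological replicates. Versions, annotation and scaling are not given in the sources used here. Fragment totals were not used here, and low values gave a relative depth between 0.967 (D9T+) and 1.56 (D6T-) of D0. The total FPKM ran from 484968 to 648264. Columns of status words (12) were not used. Columns were matched to samples by day and marker sign, reading "pos" and "neg" as that sign.

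Levels were taken as log2(FPKM + 1) in Python 3.11.15 with numpy 2.4.6 and pandas 2.3.3, for genes with at least 1 FPKM in at least 1 library. Fold calls of 4 (iPSCs over D0) and 2 (other pairs) were taken over all kept genes, without a test, since each condition had 1 library. Where the table gives exactly 0, the gene is said to be listed at 0, which can also be a failed estimate. The functions were tested on simulated data. Positions are from GENCODE M1 (mm9) and promoters from RefSeq (GRCm38.p6), where 3 of the 9 genes matched.

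Named genes are the 9, the genes of the lists, kept genes within 100 kb of the 9, the 5 genes most correlated with their mean and the single best match of each. The members and lists were chosen with earlier results of these data known, and the paper had been read. Alternatives were another pseudocount, filter, fold, scaling, onset level and measure of likeness. Alternatives for D3 over D0, D6T- over D3, D9T- over D6T-, D16S- over D12S- and the day of the largest fraction difference were chosen after seeing the data.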

Additional observations from a re-analysis of the deposited data

Results flagged for a closer look

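Fbxo15 was singled out for its values in the 2 fractions on days 12 and 16. D16S+ was above D12S+ by 2.51 on the log2(FPKM + 1) scale (46.8 against 7.39 FPKM), while D16S- minus D12S- was -0.2069 (2.11 against 2.59 FPKM), which did not pass 2-fold. The 2 values have opposite signs, but each rests on 1 library per condition, and the difference between the fractions was not tested.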

How the results depend on the processing

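With 1 library per condition no replicate could be left out. No paired analysis was possible because each condition had 1 library. No difference that passed its fold changed sign under the alternatives run. Of the counts, medians, onsets and likeness results, 93 stayed within their limits and 18 moved. With a pseudocount of 0.1 FPKM the median of the 9 genes became 9.251 for iPSCs over D0, 4.019 for day 12, 4.85 for D16S- over D0, 2.716 for D9T- over D6T- and 3.55 for D12S+ over D9T-, and day 6 called 4 genes. It also called 1 gene (Dppa4, 1.542) higher in D16S- than in D12S-, called all 9 in D16S- over D0, and left 7 of the 8 genes with their largest fraction difference on day 16. At a fold threshold of 4, day 9 called 1 gene, D3 over D0 1, D6T- over D3 2, D9T- over D6T- 3, D16S- over D0 4, D16S+ over D12S+ 2, and iPSCs over mESCs and over D16S+ none (0 and 0). An onset level of 5 FPKM left 3 genes with the same onset library. Of the 5 genes most like the mean, 1 was shared with a Spearman measure and 3 with the smaller pseudocount. Scaling every library to the same total moved the median of all genes from 0.0272 to 0.1831 for iPSCs over D0, from -0.0007 to 0.1876 for D16S- over D0, from -0.0206 to 0.12 for D3 over D0 and from -0.0144 to -0.1356 for iPSCs over D16S+. It turned the sign of Dppa2 (D3 over D0) and of L1td1 (iPSCs over D16S+, as did scaling by the median of ratios), neither of which was called. The cause of these shifts was not tested. Levels near 0 in D0 to D6T+ rest on few fragments.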

Other observations

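Genes of the 2-cell-like state, which Dppa2 and Dppa4 are known to act upstream of, were low until late. All 8 kept genes of that list were higher in iPSCs than in mESCs, with a median difference of 2.28 (log2). Of them, 5 were called higher in iPSCs than in D0 (median 2.45) and 5 in D16S+ than in D16S- (1.28). Of the 9 genes of the list with values, 8 were above 1 FPKM in iPSCs, 5 in D16S+ and 2 in mESCs. Genes thus passed the filter largely through iPSCs, which partly fixes these counts and medians. Tcstv1 was at 19.4 FPKM in D16S+, 37.2 in iPSCs and 1.07 in mESCs, and Tcstv3 at 11.3, 22.6 and 1.73. Zscan4c, whose near-identical copies make its level uncertain, was at 1.78, 4.81 and 0.15 FPKM.

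Of 6 kept germline genes, 3 were called higher in iPSCs than in D0 (median 1.87) and 6 in D16S+ than in D16S- (1.89). Mael was at 5.97 FPKM in D16S+, 0.10 in D16S-, 4.51 in iPSCs and 6.14 in mESCs. Of 5 kept markers of primed epiblast, 2 were called higher in iPSCs than in D0 (1.61) and 5 in D16S+ than in D16S- (1.53). Otx2 was at 19.6 FPKM in D12S+ and 31.3 in D16S+ but at 1.81 in iPSCs. The list went both ways between D16S+ and iPSCs. In iPSCs 3 of the 5 were called lower and 1 higher, Dnmt3b (52.2 FPKM in D16S+ and 155.8 in iPSCs).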
